A study of Homo sapiens with 6 samples.

Results

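The prostanoid genes described here are 10 of the 27754 genes counted in T47D cells: PLA2G4A, PTGS1, PTGS2, PTGES, PTGES2, PTGES3, TBXAS1, HPGD, PTGER2 and PTGER4. They were chosen by symbol around the large difference of PTGS1 between hypoxia and normoxia in these same libraries. Their values in that contrast are therefore a description, and no p-value is given for them. T47D is an established human breast cancer line of luminal type, grown in adherent culture in RPMI medium with serum. RNA sequencing compared 3 libraries of cells in a chamber at 0.5% O2 for 48 h (hypoxia) with 3 libraries of control cells at 20% O2 (normoxia). The time is from the hypoxia labels, and the study's text gives the same time for both conditions. For this RNA sequencing the study's text gives another O2 level in hypoxia, and the level on the library labels is used here. The question behind the comparison was which transcripts change in breast cancer cells under low oxygen. The samples carry no other genotype or treatment, and they come from 1 cell line. The study describes its data as independent experiments, but the labels do not say whether the replicates were separate cultures, so p-values measure the spread between these libraries, which may be technical.

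Prostanoids are short-lived lipid signals made from arachidonic acid. A cytosolic phospholipase A2 frees the acid from membrane phospholipids, a cyclooxygenase converts it to prostaglandin H2, and terminal synthases turn prostaglandin H2 into prostaglandin E2, thromboxane A2 or other products. Prostaglandin E2 acts on the EP receptors at the cell surface, and is taken up and oxidized to an inactive form. In breast cancer the pathway is best known for the inducible cyclooxygenase, encoded by PTGS2, and its product prostaglandin E2.

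The libraries held 32989104 to 89883409 counts, the largest being hypoxia replicate 3. At these depths 3 counts, taken as the floor, were worth 0.0328 to 0.0969 CPM (counts relative to the library size, as scaled by the TMM method), a limit that covers counting error only. All 8 genes of a list of known hypoxia responders were called higher in hypoxia, with no overlap between the groups. Of all 15657 tested genes, 30.4% were called higher and 29.1% lower, and 67.3% had no overlap. CA9, 1 of the 8, met the minimum count for testing in all 3 libraries only of hypoxia. The 10 luminal epithelial markers were all detected, at a summed 14400 to 18400 CPM in normoxia and 10500 to 13800 CPM in hypoxia. Of the 10, 4 were called lower in hypoxia, beside 29.1% of all tested genes. With the replicate block 7 were lower and 1 was higher, beside 71.8% of all tested genes called in either direction. The 6 leukocyte markers summed to 1.87 to 2.36 CPM in normoxia and 7.39 to 9.19 CPM in hypoxia, mostly from CD68, which passed the threshold as higher. The defining PTPRC had 0 counts in each normoxia library and 4, 1 and 5 counts in the hypoxia libraries, and CD3E and CD79A were also higher in each hypoxia library, at no more than 10 counts. The 5 platelet markers, relevant because platelets are rich in PTGS1 and TBXAS1, summed to 6.5 to 6.91 and 6.59 to 13.9 CPM, nearly all ITGA2B, with PF4 and GP9 at 0 in every library. The 7 fibroblast markers summed to 84.2 to 95.9 and 77.4 to 99.7 CPM, nearly all COL1A1, with PDGFRA at 0, and the 5 endothelial markers to at most 0.656 CPM. PDGFRB, among the fibroblast markers, had 0, 0 and 3 counts in normoxia and 14, 18 and 28 counts in hypoxia. It passed the threshold as higher, but met the minimum count for testing only in the hypoxia libraries. The part that the higher leukocyte sum and PDGFRB have in the values below was not tested. In bulk RNA, a change in the share of cells that express a gene cannot be told apart from a change in RNA per cell.

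Across the 10 genes, cyclooxygenase and terminal prostaglandin E synthase transcripts differed in opposite directions. PTGS1 and PTGS2 were higher in hypoxia, as were HPGD and PTGER2. PTGES, PTGES2, PTGES3 and PLA2G4A were lower, and PTGER4 and TBXAS1 did not pass the threshold, a Benjamini-Hochberg adjusted p under 0.05 by edgeR's quasi-likelihood method across all genes. All 10 entered the test, but PTGS2, HPGD and PTGER2 met the minimum count in all 3 libraries only of hypoxia. In normoxia HPGD met it in 2 libraries and PTGS2 and PTGER2 in 0. The calls were 4 higher and 4 lower, beside 30.4% of the 15657 tested genes called higher, 29.1% called lower and 59.5% called in either direction. The groups did not overlap for the 8 called genes, beside 67.3% of all tested genes. Since the genes were chosen on this contrast, nothing is read from these shares. The median log2-fold change of the 10 was -0.157, and that of all tested genes was 0.0281.

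**Figure D1:**
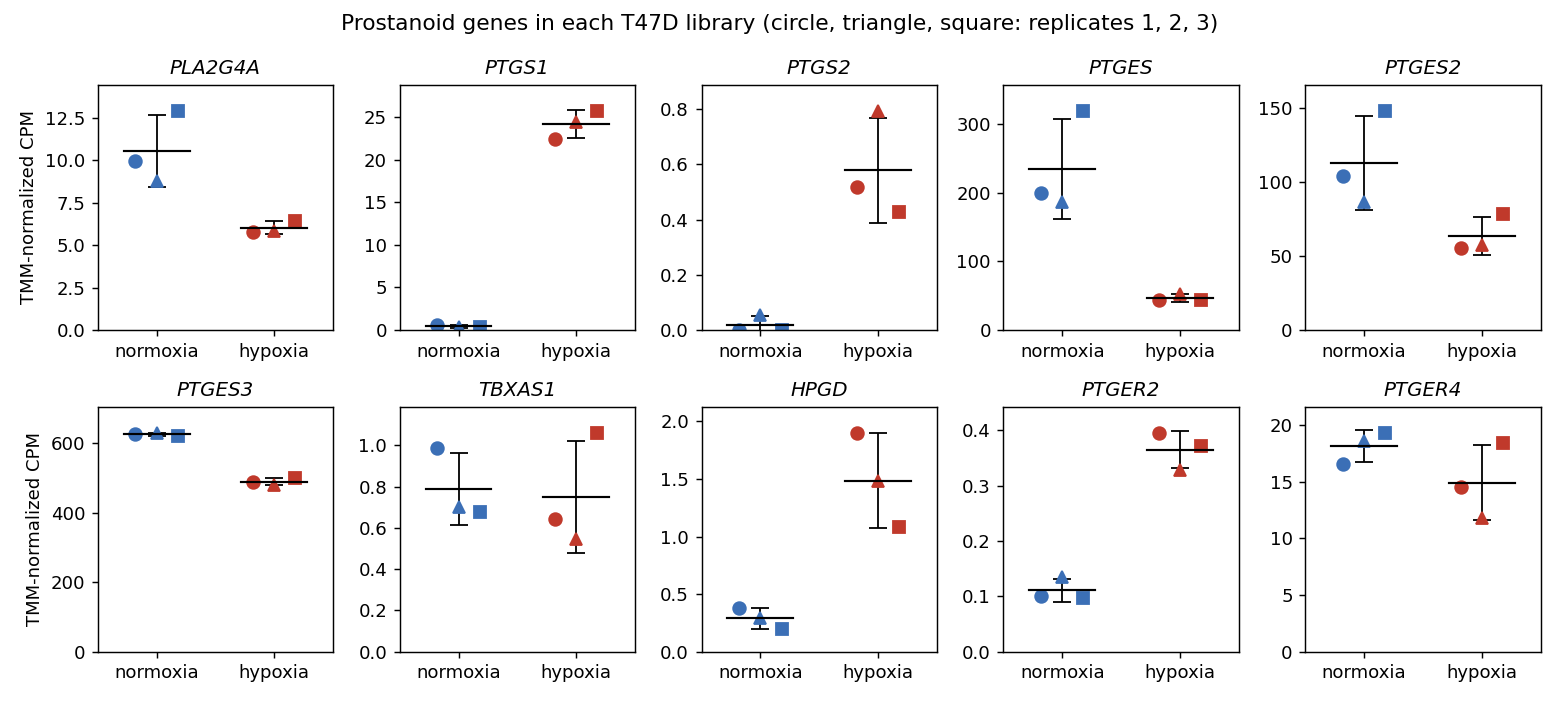
TMM-normalized CPM (y axis) of each of the 10 genes in each library, with normoxia in blue and hypoxia in red. Circles, triangles and squares are replicates 1, 2 and 3, the line is the mean of 3 libraries and the bars are 1 SD. PTGS1 rises from 0.410 to 24.1 CPM, PTGES falls from 235.2 to 46.6 CPM, and the groups overlap for TBXAS1 and PTGER4.

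The difference around which the genes were chosen was that of PTGS1, which encodes cyclooxygenase 1, the form usually regarded as constitutive. PTGS1 (chr9:125132809-125157982, GRCh37, plus strand) was covered by 22, 13 and 10 counts in the normoxia libraries, in replicate order, against 905, 891 and 2346 in the hypoxia libraries. In CPM these were 0.557, 0.349 and 0.323 in normoxia, and 22.4, 24.4 and 25.7 in hypoxia. Every hypoxia library was far above every normoxia library, and the 3 hypoxia libraries lay close together although hypoxia replicate 3 was sequenced more deeply. The mean rose from 0.410 ± 0.128 to 24.1 ± 1.67 CPM (SD, n = 3). The fitted log2-fold change was 5.85 (SE 0.195), that is 57.7-fold. This was rank 36 of the 15657 tested genes ordered from the highest log2-fold change. Between libraries of the same replicate number, the differences in log2(CPM + 0.5) were 4.43, 4.87 and 4.99, where the added 0.5 lowers the values.

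PTGS2 encodes cyclooxygenase 2, the form usually regarded as inducible, and was close to or at 0 in normoxia. PTGS2 (chr1:186640944-186649559, minus strand) had 0, 2 and 0 counts in normoxia and 21, 29 and 39 counts in hypoxia, in replicate order. The hypoxia values were 0.519, 0.793 and 0.427 CPM, with a mean of 0.579 ± 0.190 CPM. Counts of 0 in normoxia replicates 1 and 3 allow up to 0.076 and 0.0969 CPM, so the groups were apart, but every value stayed under 1 CPM. Summed over each condition, 89 counts against 2 gave a ratio of 28.4 after scaling, with a 95% exact interval of 7.64 to 238 that covers counting error only. The fitted log2-fold change depended on the prior count, and went from 4.74 to 7.76 without normoxia replicate 2, which held both normoxia counts.

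Start regions of both cyclooxygenase genes and of PTGES are shown because these members differ most between the conditions, and because the hypoxia-inducible factors bind a short core sequence. The windows are the 250 bases before each RefSeq start, written 5′ to 3′ on the strand of the gene. Each matched without mismatch to 1 place on that strand of the gene's own chromosome in GRCh37, and other chromosomes were not searched. Capitals mark the letters ACGTG or GCGTG, searched on both strands. RefSeq has a pair of PTGS1 starts, and the windows are chr9:125132562-125132811 and chr9:125137331-125137580, both on the plus strand. The PTGS2 window is chr1:186649556-186649805 and the PTGES window is chr9:132515322-132515571, both on the minus strand.
PTGS1 start 1: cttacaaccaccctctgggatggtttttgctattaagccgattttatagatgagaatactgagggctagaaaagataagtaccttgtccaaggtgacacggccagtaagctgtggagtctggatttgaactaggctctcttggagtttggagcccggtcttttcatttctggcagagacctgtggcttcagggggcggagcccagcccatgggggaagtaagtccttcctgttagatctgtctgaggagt
PTGS1 start 2: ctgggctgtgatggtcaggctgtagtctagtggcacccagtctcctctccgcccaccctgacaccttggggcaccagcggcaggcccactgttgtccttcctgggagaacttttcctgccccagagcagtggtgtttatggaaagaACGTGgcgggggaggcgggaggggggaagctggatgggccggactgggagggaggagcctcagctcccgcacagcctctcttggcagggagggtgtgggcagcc
PTGS2: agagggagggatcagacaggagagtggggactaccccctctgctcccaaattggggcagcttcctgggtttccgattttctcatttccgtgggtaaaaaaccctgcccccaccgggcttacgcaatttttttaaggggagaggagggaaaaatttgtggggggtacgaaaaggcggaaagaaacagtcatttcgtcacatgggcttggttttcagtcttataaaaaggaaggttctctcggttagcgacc
PTGES: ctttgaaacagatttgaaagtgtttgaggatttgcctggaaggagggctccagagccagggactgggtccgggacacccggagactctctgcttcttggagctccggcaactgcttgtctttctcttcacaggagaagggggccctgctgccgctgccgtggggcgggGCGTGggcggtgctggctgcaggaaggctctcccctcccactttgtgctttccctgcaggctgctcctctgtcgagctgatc

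The window of the second PTGS1 start held ACGTG, 104 bases before the start, and that of the first start held neither sequence. The second start lies 4772 bases downstream of the first counted base of the gene, and counts per gene cannot tell which start was used. PTGES, which was lower in hypoxia, held GCGTG 82 bases before its start, and PTGS2, which was higher, held neither. Of the 14 RefSeq start windows of the 10 genes, 8 (57.1%) held at least 1 of the sequences. Such a window was found for 7 of the 10 genes, with PTGS2, PLA2G4A and TBXAS1 having none. The only TBXAS1 start lies 51016 bases downstream of its first counted base, so the bases before that base were not searched. The HPGD and PTGES2 windows with a match lie wholly inside counted exons of these genes. Of 35116 RefSeq windows of the same length, 43.2% held either sequence, 18.5% ACGTG and 32.2% GCGTG. These are shares of windows, not of genes. A match describes the letters in the window and is not evidence of binding.

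PLA2G4A encodes the cytosolic phospholipase A2 that frees arachidonic acid, the substrate of both cyclooxygenases. PLA2G4A (chr1:186798032-186958113, plus strand) lies on the opposite strand to PTGS2, and 148473 bases separate the 5′ ends of these genes. PLA2G4A had 9.96, 8.76 and 12.9 CPM in normoxia and 5.76, 5.85 and 6.45 CPM in hypoxia. All hypoxia libraries were below all normoxia libraries, and replicate 3 was the highest of each condition. The mean fell from 10.5 ± 2.11 to 6.02 ± 0.379 CPM (log2-fold change -0.80, SE 0.165). The direction was therefore opposite to that of its neighbour PTGS2.

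The 3 genes of prostaglandin E synthesis from prostaglandin H2 were all lower in hypoxia, by unequal amounts. PTGES encodes the microsomal, inducible enzyme that is usually coupled to cyclooxygenase 2. PTGES (chr9:132500615-132515344, minus strand) had 7870, 6959 and 9879 counts in normoxia and 1777, 1929 and 3952 counts in hypoxia, or 199, 187 and 319 CPM against 43.9, 52.7 and 43.2 CPM. Every normoxia library was far above every hypoxia library, and normoxia replicate 3 was well above the other normoxia libraries. The mean fell from 235.2 ± 73.0 to 46.6 ± 5.30 CPM (log2-fold change -2.34, SE 0.209, 5.05-fold lower). PTGES was rank 36 of the 15657 tested genes from the lowest log2-fold change. Differences in log2(CPM + 0.5) within replicate numbers were -2.17, -1.82 and -2.87.

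PTGES2 encodes a second microsomal synthase, which is expressed in most tissues. PTGES2 (chr9:130882972-130890741, minus strand) had 104, 86.7 and 148 CPM in normoxia and 55.2, 57.4 and 78.6 CPM in hypoxia. The groups did not overlap, but hypoxia replicate 3 came close to normoxia replicate 2, and replicate 3 was the highest of each condition. The mean fell from 112.9 ± 31.6 to 63.7 ± 12.9 CPM (log2-fold change -0.82, SE 0.212). PTGES2, PTGES and PTGS1 all lie on chromosome 9, and 1609874 bases separate the 3′ end of PTGES from the 5′ end of PTGES2.

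PTGES3 encodes p23, a co-chaperone of HSP90 that also has cytosolic prostaglandin E synthase activity, and it had the highest level of the 10 genes. PTGES3 (chr12:57057125-57082192, minus strand) had 627, 630 and 622 CPM in normoxia and 489, 479 and 500 CPM in hypoxia. The spread within each condition was small beside the distance between them, and the groups did not overlap. The mean fell from 626.2 ± 4.11 to 489.6 ± 10.4 CPM (log2-fold change -0.36, SE 0.0668). The gene annotation names 5 pseudogenes of PTGES3, and how reads with several matches were counted is not given in the sources used here, so its level is uncertain to that extent.

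TBXAS1 encodes thromboxane A synthase, which uses prostaglandin H2 in platelets and macrophages. TBXAS1 (chr7:139478047-139720125, plus strand) had 0.988, 0.699 and 0.678 CPM in normoxia and 0.642, 0.547 and 1.06 CPM in hypoxia. The lowest and the highest of the 6 libraries were both from hypoxia, and the groups overlapped. Means were 0.788 ± 0.173 and 0.750 ± 0.274 CPM, and the log2-fold change was -0.03 (SE 0.329). The sign was not stable: the value was 0.11 with upper-quartile scaling, and ranged from -0.41 to 0.15 when 1 library was left out.

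HPGD encodes 15-hydroxyprostaglandin dehydrogenase, which inactivates prostaglandin E2. HPGD (chr4:175411328-175444049, minus strand) had 15, 11 and 6 counts in normoxia and 77, 54 and 99 counts in hypoxia, or 0.38, 0.296 and 0.194 CPM against 1.9, 1.48 and 1.08 CPM. All hypoxia libraries were above all normoxia libraries, and replicate 3 was the lowest of each condition. The mean rose from 0.290 ± 0.0932 to 1.49 ± 0.410 CPM (log2-fold change 2.31, SE 0.348, 4.96-fold). Within replicate numbers the differences in log2(CPM + 0.5) were 1.45, 1.31 and 1.19.

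The receptors EP2 and EP4, encoded by PTGER2 and PTGER4, both bind prostaglandin E2 and raise cyclic AMP. PTGER2 (chr14:52781016-52795322, plus strand) had 4, 5 and 3 counts in normoxia and 16, 12 and 34 counts in hypoxia, or 0.101, 0.134 and 0.0969 CPM against 0.395, 0.328 and 0.372 CPM. The groups did not overlap, yet every normoxia library was at or just above the floor of 3 counts. The mean rose from 0.111 ± 0.0205 to 0.365 ± 0.0341 CPM (log2-fold change 1.69, SE 0.349, 3.24-fold). PTGER4 (chr5:40680032-40693837, plus strand) had 16.6, 18.6 and 19.3 CPM in normoxia and 14.5, 11.8 and 18.4 CPM in hypoxia. Hypoxia replicate 3 lay within the normoxia range, so the groups overlapped, and replicate 3 was again the highest of each condition. Means were 18.2 ± 1.42 and 14.9 ± 3.33 CPM, with a log2-fold change of -0.28 (SE 0.165) that did not pass the threshold. PTGER4 passed it as lower when the replicate number was fitted as a block, with a log2-fold change of -0.30 and beside 71.8% of all tested genes called in that fit. It also passed at -0.47 without hypoxia replicate 3, and at -0.41 without both libraries numbered 3. The annotation names 2 pseudogenes of PTGER4.

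To compare levels between genes, CPM was divided by the length of the counted exons in kilobases. In normoxia the level per kilobase was highest for PTGES3 (184 ± 1.21 CPM per kilobase), then PTGES (132 ± 40.8), PTGES2 (46.6 ± 13), PTGER4 (5.31 ± 0.416), PLA2G4A (3.59 ± 0.72), TBXAS1 (0.293 ± 0.0643), HPGD (0.0957 ± 0.0308), PTGS1 (0.072 ± 0.0225), PTGER2 (0.0447 ± 0.00826) and PTGS2 (0.00399 ± 0.00691). The ranges of HPGD and PTGS1 overlapped, and no other neighbours in that order did. In hypoxia PTGS1 stood at 4.24 ± 0.293 CPM per kilobase, next after PTGER4 in the order, with a range that overlapped the range of that gene (4.36 ± 0.975). PTGES (26.1 ± 2.97) no longer stood apart from PTGES2 (26.3 ± 5.32), while PTGES3 remained the highest at 144 ± 3.05 CPM per kilobase. Ranges also overlapped between HPGD (0.491 ± 0.135) and TBXAS1 (0.278 ± 0.102), and between PTGER2 (0.147 ± 0.0138) and PTGS2 (0.129 ± 0.0424), and PLA2G4A stood between these and PTGS1 at 2.06 ± 0.13 CPM per kilobase.

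**Figure D2:**
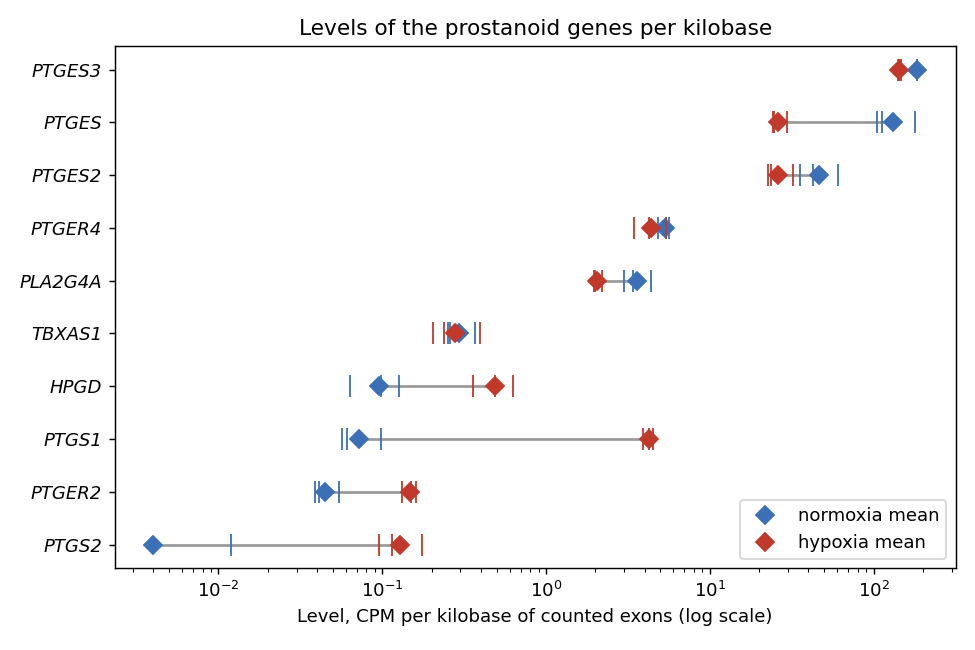
Level per kilobase of counted exons (x axis, CPM per kilobase, log scale) of the 10 genes, ordered by their normoxia mean. Diamonds are means of 3 libraries and ticks are single libraries, and PTGS2 ticks at 0 in normoxia cannot be drawn on a log axis. PTGS1 moves from the lower end, at 0.072, to 4.24 CPM per kilobase.

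PTGS1 made up most of the cyclooxygenase transcripts per kilobase in every library. Its share was 100, 83.7 and 100% in normoxia, where it rests on few counts, and 97.1, 96 and 97.9% in hypoxia. Both cyclooxygenases were higher in hypoxia, and the transcript ratio between them was not estimable in the normoxia libraries with no PTGS2 count. The level of PTGS1 relative to PTGES per kilobase was 0.000593 ± 0.00028 in normoxia and 0.164 ± 0.0209 in hypoxia. HPGD stood at 1.33 ± 0.236 times PTGS1 per kilobase in normoxia, where both had few counts, and at 0.118 ± 0.0405 times in hypoxia. The genes were chosen around the large rise of PTGS1, so nothing further is read from the change in these ratios. These ratios are within a library and do not depend on scaling between libraries.

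Among the 3 prostaglandin E synthase genes, PTGES made up 32.9, 32.1 and 42.3% of the summed level per kilobase in normoxia, and 12.8, 15.2 and 11.9% in hypoxia. The share of PTGES3 was 51.5 ± 7.25% in normoxia and 73.4 ± 1.64% in hypoxia, although its own level was lower in hypoxia. That of PTGES2 was 12.7 ± 1.73% and 13.3 ± 2.23%, and its ranges overlapped. Of the 4 EP receptor genes, PTGER3, which encodes the receptor that lowers cyclic AMP in most settings, made up 74 ± 4.37% in normoxia and 78.6 ± 5.26% in hypoxia. PTGER4 made up 24.4 ± 4.66% and 18.3 ± 4.84%. PTGER2 made up 0.202 ± 0.0234% and 0.614 ± 0.0481%, the smallest share of the 4 in each library. The ratio of PTGER3 to PTGER4 per kilobase was 3.13 ± 0.71 in normoxia and 4.53 ± 1.32 in hypoxia, and these ranges overlapped.

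**Figure D3:**
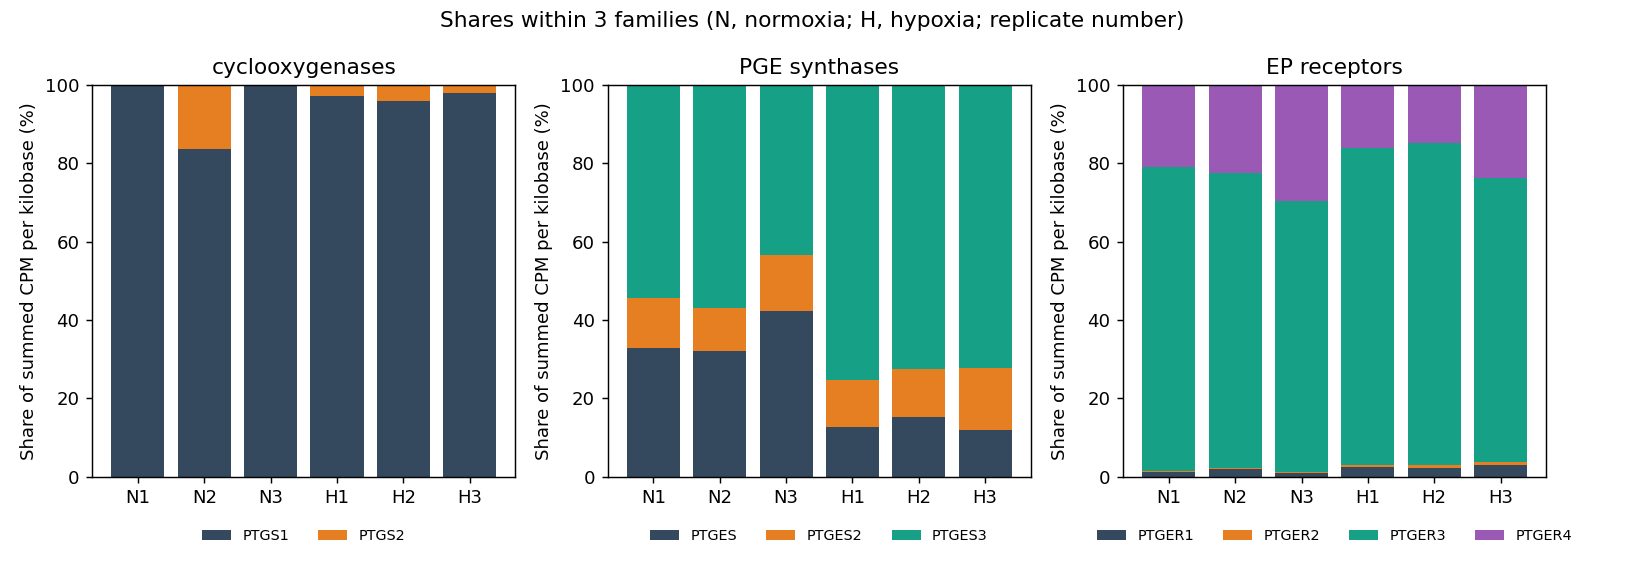
Share of the summed CPM per kilobase (y axis, percent) taken by each gene of 3 families in each library, with N for normoxia, H for hypoxia and the replicate number. PTGS1 takes 83.7 to 100% of the cyclooxygenase level, PTGES takes less in each hypoxia library than in any normoxia library, and PTGER3 takes most of the EP receptor level.

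The pattern of PTGS1 over the 6 libraries was compared with that of the 12664 tested genes averaging at least 100 counts, by the root mean square difference of log2(CPM + 0.5) after subtracting each gene's mean. The nearest was BEST1, a chloride channel gene, at 0.14 (mean 0.384 CPM in normoxia and 22 CPM in hypoxia). It was followed by TMEM45A, a membrane protein gene, at 0.169 (0.504 and 22 CPM), and by FGD5 at 0.191 (0.203 and 21.1 CPM). MAP7D2, which encodes a microtubule-binding protein, also stood at 0.191 (0.232 and 18.5 CPM). NDRG1, a widely used hypoxia-responsive gene, stood at 0.258 with higher levels throughout (23 and 476 CPM). The likeness rests on 6 libraries in 2 conditions, so it mostly says that these genes differed by a like amount.

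**Figure D4:**
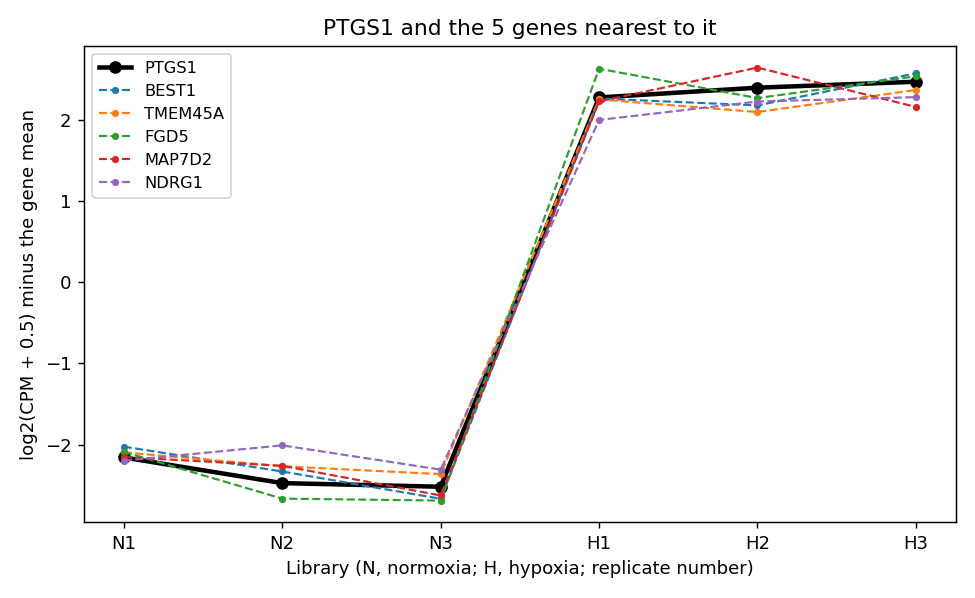
Log2(CPM + 0.5) minus the mean of the gene (y axis) in each of the 6 libraries (x axis) for PTGS1, thick black line, and the 5 genes nearest to it. All 6 lines are low in the 3 normoxia libraries and high in the 3 hypoxia libraries, and the nearest, BEST1, differs from PTGS1 by 0.14 on this scale.

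The rest of the pathway was covered by 116 further genes in 6 lists, of which 94 could be tested. Of these, 28 were higher and 36 lower in hypoxia (68.1% called, beside 59.5% of all tested genes, of which 30.4% were higher and 29.1% lower), and their median log2-fold change was -0.0716. Of the 94, 10 met the minimum count in all 3 libraries only of hypoxia, and 9 of these were among the 28 higher. PLA2G7, SLCO2A1, PTGIS, PTGER1 and ALOX5 are such genes and are given without a p-value. The adjusted p-values that follow are from edgeR's quasi-likelihood test with Benjamini-Hochberg adjustment over all 15657 genes.

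In arachidonate release and esterification, 5 of 23 tested genes were higher and 8 lower, beside 30.4% and 29.1% of all tested genes. The higher ones included the phospholipases PLA2G6 (12.1 to 27.6 CPM, log2-fold change 1.19, SE 0.186, adjusted p = 0.00118), PLA2G4C (0.581 to 3.24 CPM, log2-fold change 2.45, adjusted p = 0.000941) and PLA2G7 (0.15 to 0.887 CPM, log2-fold change 2.48). PLA2G4C shares 155 exon bases with an antisense gene, and the strand setting of the counting is not given in the sources used here. Lower were PLA2G4F, a cytosolic phospholipase of the same family as PLA2G4A (3.29 CPM in hypoxia, log2-fold change -2.18, adjusted p = 0.000137), the diacylglycerol lipase DAGLA (47.5 to 23.1 CPM, log2-fold change -1.04, adjusted p = 0.000232) and the fatty acid elongase ELOVL5 (277.2 to 184.7 CPM, log2-fold change -0.59, adjusted p = 0.000618). PLA2G4A and PLA2G4F were thus both lower, and PLA2G4C, of the same family, was higher.

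Among the other prostanoid synthases, transporters and catabolic enzymes, 4 of 13 tested genes were higher and 5 lower. The shares of all tested genes were 30.4% and 29.1%. SLCO2A1, the prostaglandin uptake transporter that acts ahead of HPGD, had 7, 21 and 4 counts in normoxia and 610, 439 and 1712 counts in hypoxia. These were 0.177, 0.564 and 0.129 CPM against 15.1, 12 and 18.7 CPM, with every hypoxia library far above every normoxia library. The mean rose from 0.290 ± 0.239 to 15.3 ± 3.37 CPM (SD, n = 3), with a fitted log2-fold change of 5.68 (SE 0.409), and 6.58 without normoxia replicate 2. PTGIS, the prostacyclin synthase, rose from 0.0779 to 0.580 CPM (log2-fold change 2.89), and AKR1C3, which can form prostaglandin F, from 1.40 to 5.29 CPM (log2-fold change 1.95, adjusted p = 0.00327). Lower were the glutathione transferases GSTM3 (515.1 to 116 CPM, log2-fold change -2.15, adjusted p = 3.27e-05) and GSTM2 (44.9 to 27.3 CPM, log2-fold change -0.72, adjusted p = 0.00272) and the carbonyl reductase CBR1 (log2-fold change -0.91, adjusted p = 0.00283). AKR1C3, GSTM2 and GSTM3 have paralogs of similar sequence, and how reads with several matches were counted is not given. CBR1 shares 481 exon bases with a gene on the opposite strand. The counts of these genes are uncertain to that extent.

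Of the 7 other prostanoid receptor genes, 3 could be tested and 1 was higher, beside 30.4% of all tested genes. PTGER1, which encodes EP1, had a mean of 0.445 CPM in normoxia and 0.873 CPM in hypoxia (log2-fold change 0.96, SE 0.348), and missed the threshold in DESeq2. It also missed it in edgeR when any library but normoxia replicate 2 was left out (log2-fold changes of 0.71 to 1.04). PTGER3 had 169.1 ± 29.3 and 194.3 ± 23.9 CPM with overlapping groups (log2-fold change 0.20, adjusted p = 0.26 in edgeR), and passed the threshold as higher with the replicate block (adjusted p = 0.015). The thromboxane receptor gene TBXA2R had 2.33 and 2.22 CPM (log2-fold change -0.05). PTGFR and PTGDR had 0 counts in all 6 libraries.

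In the lipoxygenase and leukotriene branch, which uses the same arachidonic acid, 6 of 11 tested genes were higher and 2 lower. Across all tested genes, 30.4% were higher and 29.1% lower. ALOX5, the 5-lipoxygenase, had 1, 3 and 0 counts in normoxia and 32, 35 and 59 counts in hypoxia. The fitted log2-fold change was 4.31 (SE 0.574), and 5.55 without normoxia replicate 2. ALOX15 rose from 4.67 to 11.8 CPM (adjusted p = 0.000305), and LTA4H, which forms leukotriene B, by 0.34 on the log2 scale (adjusted p = 0.00478). MGST2 (-0.56, adjusted p = 0.0304) and GGT1 (-0.29, adjusted p = 0.0414) were lower. MGST2 lost its call without normoxia replicate 3 (-0.39), hypoxia replicate 1 (-0.51) or hypoxia replicate 2 (-0.48). GGT1 lost it without any 1 library other than hypoxia replicate 3 (-0.23 to -0.32), and both lost it with upper-quartile scaling (-0.40 and -0.14).

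Of the tested genes for cyclic AMP signalling below EP2 and EP4, 11 of 28 were higher and 6 lower. Of all tested genes 30.4% were higher and 29.1% lower. Both the adenylyl cyclases that make cyclic AMP and the phosphodiesterases that break it down were among the called genes of this list. ADCY7 rose (log2-fold change 2.60, adjusted p = 0.000239) and ADCY9 fell (87.3 to 40.8 CPM, log2-fold change -1.10, adjusted p = 9.82e-05). The phosphodiesterases PDE4C (1.05 to 5.66 CPM, log2-fold change 2.41, adjusted p = 9.38e-05) and PDE4D (log2-fold change 1.66, adjusted p = 0.00038) rose, and PDE4D shares 157 exon bases with a gene on the opposite strand. The arrestin gene ARRB1 (log2-fold change -1.39, adjusted p = 0.000161) and the kinase subunit gene PRKAR2A (log2-fold change -0.70, adjusted p = 0.00021) fell.

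In the list of HSP90 genes and co-chaperones, which leaves out the co-chaperone PTGES3, 15 of 16 genes were lower and 1 was higher. Of all tested genes 29.1% were lower, and the median log2-fold change of the list was -0.676. With upper-quartile scaling 11 were lower. FKBP4, a co-chaperone of steroid receptors, fell from 1100 to 315.1 CPM (log2-fold change -1.80, adjusted p = 5.99e-05), HSP90AA1 from 4283 to 1595 CPM (log2-fold change -1.42, adjusted p = 0.000214) and FKBP5 by 0.84 on the log2 scale (adjusted p = 0.000259). HSP90B1, the form of the endoplasmic reticulum, rose from 1087 to 1651 CPM (log2-fold change 0.60, adjusted p = 0.00837). FKBP4 shares 187 exon bases with a gene on the opposite strand, and HSP90B1 131 and FKBP5 76 with genes on the same strand, so these counts are uncertain to that extent. The log2-fold change of PTGES3, -0.36, was smaller in size than the median of this list.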

How the data were processed

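Stranded mRNA libraries of T47D cells were sequenced by the authors, who trimmed adapters using Skewer, mapped the reads to GRCh37 and deposited raw counts per RefSeq gene, not normalized, with 1 file per library. The submitters' processing notes name FastQC 0.11.5, STAR 2.5.2a and featureCounts 1.5.1. Whether counting used strand, and what was done with reads that match several places, is not given in the sources used here, and the labels and the methods name different RNA extraction kits. Each deposited file also gives the summed exon length of each gene, used here only for levels per kilobase.

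Counts were analysed with R 4.3.3 and edgeR 4.0.16: filterByExpr (minimum count 10, minimum total 15), TMM scaling, and the quasi-likelihood test on all 6 libraries with condition as the only term, with Benjamini-Hochberg adjustment at 0.05 over 15657 genes. Alternatives to this test were edgeR's exact test, which the study used, and DESeq2 1.42.0. CPM values are TMM-scaled and given as a mean ± SD of 3 libraries. Libraries with the same replicate number in the labels deviated together from their condition means (correlations of 0.426, 0.495 and 0.624 for numbers 1, 2 and 3). The study's methods also call the samples paired. The main fit, with its SEs and adjusted p-values, leaves this pairing out, and calls 59.5% of all tested genes. A fit with the replicate number as a block calls 71.8%. This replicate block is reported where it changes the call of a named gene or moves a count of calls by over 1.5 times. No pair of libraries agreed within sampling noise.

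The prostanoid genes and the further lists were chosen with earlier results of these data known. The named genes were the 10 prostanoid genes, in each further list up to 3 called genes with the smallest p each way, and the 5 genes nearest to PTGS1. PTGER3, TBXA2R, PTGFR and PTGDR were named after their values were seen, as were the markers. Start windows were taken from RefSeq (GRCh38.p14) and matched to GRCh37. Figures used matplotlib 3.10.9 under Python 3.11.15. The alternatives covered the test, scaling, filter, replicate block, threshold, levels in TPM and leaving out libraries.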

Additional observations from a re-analysis of the deposited data

How the results depend on the processing

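All 8 calls among the 10 prostanoid genes held in edgeR's exact test, DESeq2, both other scalings, without the filter, with the replicate block and without each library in turn. The log2-fold change of PTGS1 ranged from 5.67 to 6.14. The replicate block changed the call of PTGER4 and of no other prostanoid gene, and raised the higher calls among other prostanoid receptors to 2. It also gave 14 higher and 8 lower for cyclic AMP signalling, 6 higher and 9 lower for arachidonate release, and 6 lower for other synthases, all within 1.5 times the counts without it. At an adjusted p under 0.01, PTGES2 was lost, and the higher calls were 7 for cyclic AMP signalling and 0 for other receptors, with 0 lower in the lipoxygenase branch. With at least 50 counts in 3 libraries, 7 of the 10 could be tested and 2 were higher, and the higher calls were 3 for arachidonate release, 2 for other synthases and 0 for other receptors, with 1 lower in the lipoxygenase branch. With a log2-fold change of at least 1 in size, 1 of the 10 (PTGES) was lower, and the other pathway genes had 18 higher and 10 lower. These were 3 lower for arachidonate release, 1 lower for other synthases, 0 higher for other receptors, 3 higher and 0 lower for the lipoxygenase branch, 7 higher and 2 lower for cyclic AMP signalling, and 0 higher and 4 lower for HSP90, beside 2373 higher and 768 lower of all genes. With no filter, 10 lipoxygenase genes were higher. Upper-quartile scaling moved the median of all genes by 0.157, to 5972 higher and 3285 lower calls (64.5% higher, against 51.1%), left 0 lipoxygenase genes lower, and put TBXAS1 at 0.11. DESeq2 left 0 other receptors higher. Leaving out 1 library gave -0.41 to 0.15 for TBXAS1, positive without normoxia replicate 1, hypoxia replicate 1 or hypoxia replicate 2, 0 to 1 higher among other receptors, and 0 to 2 lower in the lipoxygenase branch. The causes of these changes were not tested. Low normoxia counts limit the values of PTGS2, PTGER2, HPGD, PTGIS, PLA2G7, ALOX5, SLCO2A1 and PTGER1.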
